A study of Sparus aurata with 9 samples.

Results

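miR-122, miR-192 and miR-194 are miRNAs best known from liver, intestine and kidney, and they were followed here in primary cultures of myoblasts taken from fast muscle of a marine fish, the gilthead sea bream (Sparus aurata). Every entry of the deposited miRNA table named miR-122, miR-192 or miR-194 was taken, whatever the letter, arm or suffix after that number. This gave 9 entries of 862 in the table, and the 9 sequences all differ from one another and from every other entry. miR-122 had 2 entries, miR-192 had 1 and miR-194 had 6. Of the 9 entries, 7 reached 10 normalized reads in 3 or more of the 9 libraries and were tested, among 594 tested entries in all.

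Cells were grown to day 8 and then placed in the media of 3 groups, from which small RNA was sequenced after 36 h, in 3 libraries each. AA cells were kept for 12 h in a medium free of amino acids and then for 24 h in DMEM, which supplies amino acids. IGF1 cells were kept for 12 h without amino acids and then for 24 h with recombinant sea bream insulin-like growth factor 1, carried by bovine serum albumin, still without amino acids. CTR cells had no amino acids for 36 h, in Earle's salts with vitamins and glucose. All cells came from the epaxial muscle of fingerlings, had been grown in medium with fetal bovine serum, and were starved of amino acids for at least 12 h, so no group was left untreated. The AA and CTR media also differed in more than amino acids, and the IGF1 and CTR media differed in the albumin carrier as well as the hormone. The cultures are primary isolates from muscle tissue and can hold other cells than myoblasts. The study describes 3 independent cultures. The labels give no link between a library and its culture, so the p-values here reflect how far libraries of 1 group lie apart, which may be partly technical.

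miRNAs are short RNAs that guide Argonaute proteins to complementary sites in mRNAs and so reduce the translation or stability of these mRNAs. The seed, bases 2 to 8 from the 5′ end, contributes most to the choice of targets. miR-122 is the dominant miRNA of vertebrate hepatocytes, where it is known in mice and humans for its part in cholesterol and fatty acid metabolism. miR-192 and miR-194 are abundant in epithelia of the gut, liver and kidney, are encoded side by side in vertebrate genomes, and are induced by p53 in human cells. In mammals miR-215 carries the same seed as miR-192, and no entry named miR-215 was among those analysed. None of the 3 is counted among the myomiRs, the muscle miRNAs miR-1, miR-133, miR-206 and miR-499.

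The sequences below are shown because they define what each entry measures. They were read from the deposited table, are written 5′ to 3′ with T for U, and have the seed in capitals.
miR-122: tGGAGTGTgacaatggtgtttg
miR-122_R+2: tGGAGTGTgacaatggtgtttgtt
miR-192: aTGACCTAtgaattgacagcc
miR-194a: tGTAACAGcaactccatgtgga
miR-194b: tGTAACAGcatctccatatgga
miR-194b_R+2: tGTAACAGcatctccatatggaat
miR-194b-5p_R+2: tGTAACAGcatctccatatggact
mir-194b-p3: cCAGTGGAgctgctgttatct
mir-194b-p3_1ss22GA: cCAGTGGAgctgctgttatcta
The entries fall into 4 seed groups, and no other entry of the table has any of these 4 seeds. The 4 entries of the 5p arm of miR-194 share 1 seed, and the 2 entries named p3 come from the opposite strand of the miR-194b hairpin and have another. The paralogs miR-194a and miR-194b differ outside the seed, by T11A and A18G from miR-194b to miR-194a, with positions counted from 1 at the 5′ end. The suffix R+2 marks forms that run 2 bases past the 3′ end of the named miRBase sequence. The pair of 24-nt forms of miR-194b differ from each other by A23C, counted in the same way from miR-194b_R+2 to miR-194b-5p_R+2. Both 3p forms agree over 21 bases, and the 22-nt form ends in an additional A. The names were borrowed from zebrafish for miR-122 and from other fish for the rest, and positions in the sea bream genome were not analysed here.

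Inferred depth was 9766620 to 11214788 reads in AA libraries, 7241678 to 9534840 in IGF1 libraries and 7045311 to 8010694 in CTR libraries. The depth was inferred from the step between low values within a library, taken as the value of 1 read. Entries listed at 0 numbered 112 to 119 in AA, 134 to 159 in IGF1 and 156 to 191 in CTR, and the smallest values above 0 were 0.923 to 2.88 normalized reads per library, so a value of 0 is given below only as listed at 0. CTR replicate 1 stood apart from its group, with a median absolute log2 difference of 0.54 and 0.47 from the other CTR libraries, against 0.23 to 0.36 between all other libraries of the same group. Markers of the labelled cell type were measured: all 13 myomiR entries were tested, and the myomiRs took 9.22% of normalized reads in AA, 6.91% in IGF1 and 7.10% in CTR. Markers of other cell types were measured too, as given below. All intervals given for single libraries are exact Poisson intervals at 95% on the inferred reads and cover counting error only, since reads without molecular identifiers are not independent molecules.

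The hepatic and intestinal miRNAs were present at low levels in these muscle cultures. Together the 9 entries held 0.0126% of all normalized reads, of which miR-122 held 0.00478%, miR-192 0.00252% and miR-194 0.00531%. Per library their sum was 1012 ± 70.5 normalized reads in AA, 1068 ± 80.7 in IGF1 and 1202 ± 53.5 in CTR (SD, n = 3 each). The mean myomiR sum was 801 times the mean sum of the 9 entries in AA, 555 times in IGF1 and 511 times in CTR. The most abundant of them were nonetheless not at the floor of the table. The median tested entry held 148 normalized reads. miR-122 lay above 62.0% of tested entries, miR-194b above 58.6%, miR-192 above 54.7% and miR-194a above 44.9%. The rare entries lay far lower, with mir-194b-p3_1ss22GA above 14.0%, mir-194b-p3 above 5.22% and miR-194b_R+2 above 3.87%. miR-194b-5p_R+2 and miR-122_R+2 did not reach the minimum for testing.

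Among themselves the 4 abundant entries kept the order miR-122, miR-194b, miR-192 and miR-194a by mean in all 3 groups, on the scale of normalized reads, not divided by the 21 to 22 nt of these sequences. In CTR no neighbours in this order overlapped. In AA, miR-122 overlapped with miR-194b and miR-194b with miR-192, and in IGF1 miR-122 overlapped with miR-194b. miR-194a lay below the other entries in every library of every group. The gap between miR-122 and miR-194b was thus outside the spread between libraries in CTR, but not in AA or IGF1.

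**Figure D1:**
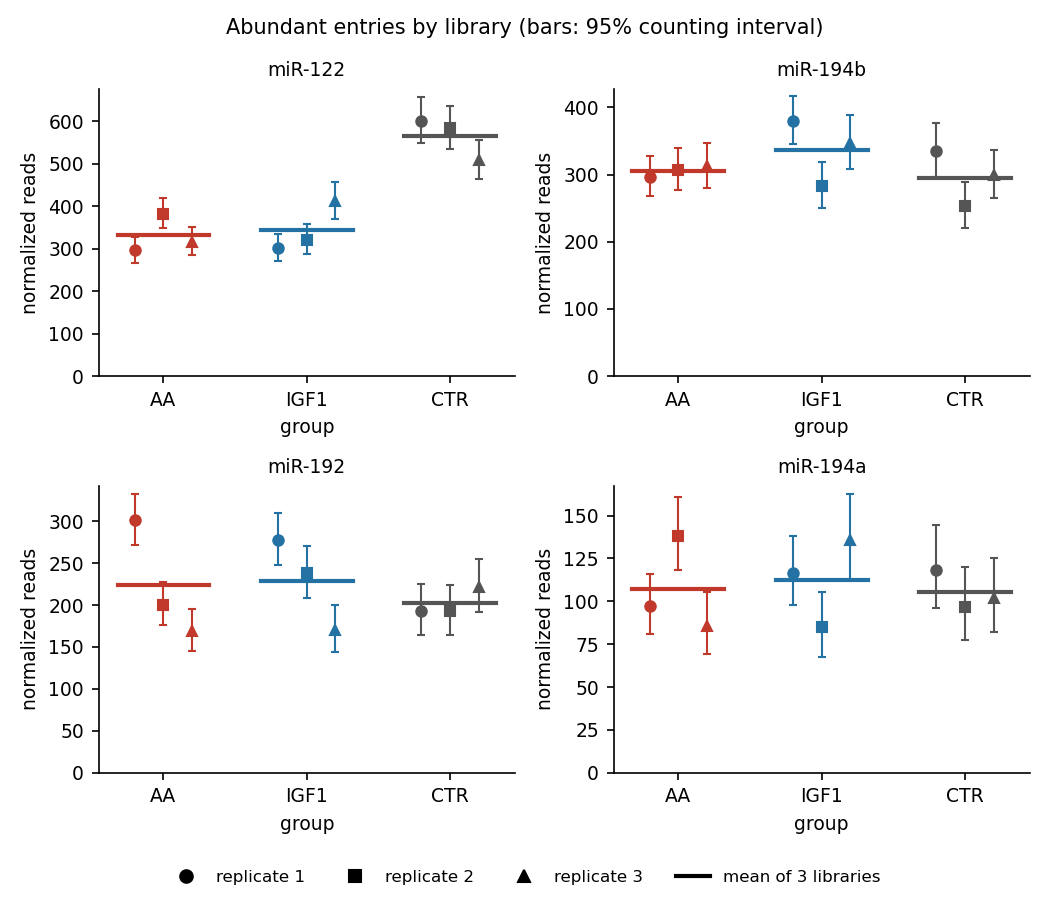
Normalized reads of miR-122, miR-194b, miR-192 and miR-194a (y axes, from 0) in each library of the AA, IGF1 and CTR groups (x axes), with 95% counting intervals and the mean of 3 libraries as a horizontal line. All 6 AA and IGF1 values of miR-122 lie between 296 and 412 and below the 3 CTR values, from 508 to 601, whereas the groups overlap for the other entries.

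miR-122 was the entry of the set with the clearest difference between groups, and its level was lower in AA and IGF1 libraries than in CTR libraries. The 22-nt form held 99.7% of all miR-122 reads. It had 296, 382 and 317 normalized reads in AA libraries, 302, 321 and 412 in IGF1 libraries, and 601, 584 and 508 in CTR libraries. Every AA and every IGF1 library lay below every CTR library, while the AA and IGF1 libraries overlapped. The counts behind these values were 313 to 506 inferred reads, and the counting intervals ran no higher than 419 in AA and 457 in IGF1, and no lower than 463 in CTR.

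The mean of miR-122 was 332 ± 45.0 normalized reads in AA and 564 ± 49.4 in CTR (SD, n = 3 each), a ratio of 0.587. In limma, the log2 fold change of AA against CTR was -0.77 (SE 0.18, 95% interval -1.17 to -0.37), with an unadjusted p of 0.00174, the 18th smallest of 594. Its adjusted p was 0.0575, so it missed the threshold of 0.05. For comparison, 14 of 594 entries (2.36%) passed that threshold between AA and CTR, 11 higher and 3 lower in AA, or 9 higher and 7 lower after quantile normalization. Groups did not overlap in 22.6% of tested entries, and 16.5% had an unadjusted p under 0.05. The adjusted p of miR-122 lay between 0.0257 and 0.207 over the 21 alternatives tried and was under 0.05 with 3 of them, among which were a minimum of 100 normalized reads (adjusted p = 0.0381, limma) and library weights (log2 fold change -0.57, adjusted p = 0.0257, limma). Without CTR replicate 1 the log2 fold change was -0.72 (adjusted p = 0.0546, limma).

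In IGF1 the mean of miR-122 was 345 ± 58.7 normalized reads, against 564 ± 49.4 in CTR (SD, n = 3 each), a ratio of 0.611. The log2 fold change of IGF1 against CTR was -0.72 (SE 0.18, 95% interval -1.12 to -0.31), with an unadjusted p of 0.00274, the 6th smallest, and an adjusted p of 0.271 in limma. No entry of the table passed the threshold between IGF1 and CTR, a share of 0%, and the smallest adjusted p was 0.114. Groups did not overlap in 13.3% of tested entries, and 10.3%, 61 entries, had an unadjusted p under 0.05. Without CTR replicate 1 the log2 fold change was -0.67 (adjusted p = 0.099, limma).

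AA and IGF1 did not separate for miR-122. The log2 fold change of AA against IGF1 was -0.05, and its 95% interval of -0.46 to 0.35 leaves room for a difference in either direction. The comparisons of AA and of IGF1 with CTR share the same 3 CTR libraries, so they are not independent of each other. When both entries of miR-122 were summed, the exact permutation test gave p = 0.1 for AA against CTR and for IGF1 against CTR, two-sided, the smallest p that 3 against 3 libraries allow, and adjusted p = 0.45 over the 9 tests of the 3 summed numbers. The 24-nt form miR-122_R+2 was listed at 5.54 normalized reads in AA replicate 3 and 5.13 in IGF1 replicate 2, and at 0 in the other 7 libraries. These libraries are bulk samples, and a smaller number of cells that hold miR-122 cannot be told apart from less miR-122 per cell.

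The summed level of the epithelial list (miR-200, miR-429, miR-203 and miR-205, with no entry for miR-141) was 425 to 515 normalized reads in AA, 438 to 653 in IGF1 and 682 to 817 in CTR, so that, as for miR-122, AA and IGF1 lay below CTR without overlap. Of its 10 entries 5 were tested, and 4 of the 5 were lower in AA than in CTR, with a median log2 fold change of -0.30, beside 0.08 over all tested entries. In IGF1 4 of the 5 were also lower than in CTR, with a median of -0.73, beside 0.05 over all tested entries. Groups did not overlap for 2 of the 5 in each of these comparisons, beside 22.6% of all tested entries in AA and 13.3% in IGF1. These were the miR-203 forms miR-203a_L+1 and miR-203a-3p_L-1R+1. miR-203a_L+1 had 97.3 to 166 normalized reads in AA, 167 to 219 in IGF1 and 276 to 389 in CTR. miR-203a-3p_L-1R+1 had 57.2 to 91.0, 71.8 to 126 and 141 to 172 in the same order. The gap of the summed level was thus not a trait of the whole list. Only 1 of the 5 passed the threshold in AA and none in IGF1, beside 2.36% and 0% of all tested entries. It was miR-203a_L+1, the most abundant entry of the list, which fell in AA (log2 fold change -1.39, adjusted p = 0.00994, limma). Its log2 fold change in IGF1 was -0.82 (adjusted p = 0.285, limma). miR-203 is a miRNA of the epidermis in mammals. The part of epithelial cells in the level of miR-122 was not tested.

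miR-192 did not follow the same pattern. It had 301, 201 and 169 normalized reads in AA libraries, 277, 238 and 170 in IGF1 libraries, and 193, 193 and 222 in CTR libraries. The CTR libraries lay inside the range of both other groups, whose replicates 1 were the highest and replicates 3 the lowest. The mean was 224 ± 69.1 in AA, 229 ± 54.0 in IGF1 and 202 ± 16.5 in CTR (SD, n = 3 each). The log2 fold change was 0.10 for AA against CTR (95% interval -0.46 to 0.67), 0.15 for IGF1 against CTR (-0.41 to 0.71) and -0.05 for AA against IGF1 (-0.61 to 0.52). None of the 3 passed the threshold in limma, with adjusted p = 0.849, 0.838 and 0.996 in that order. The intervals do not show that the groups had the same level.

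The libraries of miR-192 lay farther apart in AA and IGF1 than in CTR. Its coefficient of variation was 30.9% in AA and 23.6% in IGF1, against 8.16% in CTR, while counting error alone would give 6.07%, 6.57% and 7.54% in these groups. The counting interval of AA replicate 1, 272 to 333, did not overlap with those of AA replicate 2, 176 to 228, or AA replicate 3, 145 to 195. Separate libraries usually differ by more than counting error, and the difference in spread between groups was not tested.

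The 5p arm of miR-194 was carried mainly by miR-194b, which held 67.8% of all miR-194 reads. miR-194b had 297, 307 and 312 normalized reads in AA libraries, 380, 283 and 347 in IGF1 libraries, and 334, 253 and 299 in CTR libraries. The AA libraries lay close together and inside the range of the CTR libraries, and all 3 groups overlapped. Its log2 fold change was 0.06 for AA against CTR (95% interval -0.33 to 0.45), 0.19 for IGF1 against CTR (-0.20 to 0.58) and -0.13 for AA against IGF1 (-0.52 to 0.26), with adjusted p = 0.875, 0.687 and 0.996 in limma. With quantile normalization the sign of the AA against CTR value turned, to -0.14. These were the narrowest intervals among the 7 tested entries.

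The paralog miR-194a, which shares the seed of miR-194b, had 97.3, 138 and 85.9 normalized reads in AA libraries, 117, 85.1 and 136 in IGF1 libraries, and 118, 96.9 and 102 in CTR libraries. No group stood apart, and the highest and the lowest library were an AA library and an IGF1 library. The log2 fold changes were -0.01 for AA against CTR (95% interval -0.55 to 0.54), 0.07 for IGF1 against CTR (-0.48 to 0.61) and -0.07 for AA against IGF1 (-0.62 to 0.47). In AA and IGF1 its coefficient of variation was 25.7% and 22.7%, beside 10.6% in CTR and a counting error of 8.83%, 9.49% and 10.5% in these groups. Summed over its 6 entries, miR-194 held 455 ± 27.6 normalized reads in AA, 493 ± 71.3 in IGF1 and 435 ± 45.5 in CTR (SD, n = 3 each). The exact permutation tests of this sum gave p of 0.3 or more in all 3 comparisons, where 0.1 is the smallest possible.

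The opposite strand of the miR-194b hairpin was sequenced too, at a small fraction of the level of the 5p arm. The 22-nt form, mir-194b-p3_1ss22GA, had 17.8, 20.8 and 24.0 normalized reads in AA libraries, 13.2, 16.4 and 18.6 in IGF1 libraries, and 8.45, 12.7 and 22.2 in CTR libraries. The CTR libraries overlapped with both other groups, and CTR replicate 1 was the lowest of 9. Its log2 fold change was 0.59 for AA against CTR (95% interval -0.32 to 1.5, adjusted p = 0.487 in limma). It was 0.23 for IGF1 against CTR (-0.68 to 1.14) and 0.36 for AA against IGF1 (-0.55 to 1.27). Without CTR replicate 1 the value was 0.29 for AA against CTR and -0.08 for IGF1 against CTR. AA against CTR was 0.93 without CTR replicate 3 and 0.17 with library weights, and it missed the threshold in each case.

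The 21-nt form, mir-194b-p3, had 9.27, 9.16 and 8.31 normalized reads in AA libraries, 16.7, 11.3 and 11.6 in IGF1 libraries, and 13.8 and 15.5 in CTR replicates 2 and 3, and was listed at 0 in CTR replicate 1. The AA libraries all lay below the IGF1 libraries, and such a lack of overlap between AA and IGF1 was seen for 15.3% of tested entries. At most 19 inferred reads stood behind any of these values, and the counting intervals of the AA and IGF1 libraries overlapped. The log2 fold change was -0.50 for AA against IGF1 (95% interval -2.65 to 1.66), 0.66 for AA against CTR (-1.49 to 2.82) and 1.16 for IGF1 against CTR (-1.0 to 3.32), all with adjusted p of 0.656 or more in limma. The comparisons with CTR rested on the library listed at 0: without CTR replicate 1 they were -0.66 for AA and -0.16 for IGF1.

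The 24-nt forms of miR-194b were rarer still. miR-194b_R+2 had 13.1, 8.32 and 9.24 normalized reads in AA libraries, 14.9, 10.3 and 9.28 in IGF1 libraries, and 6.04, 6.92 and 12.2 in CTR libraries. All groups overlapped, and the log2 fold changes were 0.29 for AA against CTR, 0.44 for IGF1 against CTR and -0.15 between AA and IGF1, each with an interval of about 1 log2 unit or more on either side. The form miR-194b-5p_R+2 did not reach the minimum for testing. It was listed in all AA libraries at 1.93 to 2.91 normalized reads, in 2 IGF1 libraries at 3.48 and 4.62, and in 1 CTR library at 3.88. It was listed at 0 in IGF1 replicate 1 and in CTR replicates 1 and 2. Its highest value came from 4.5 inferred reads, a fraction, so reads may have been divided between names.

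**Figure D2:**
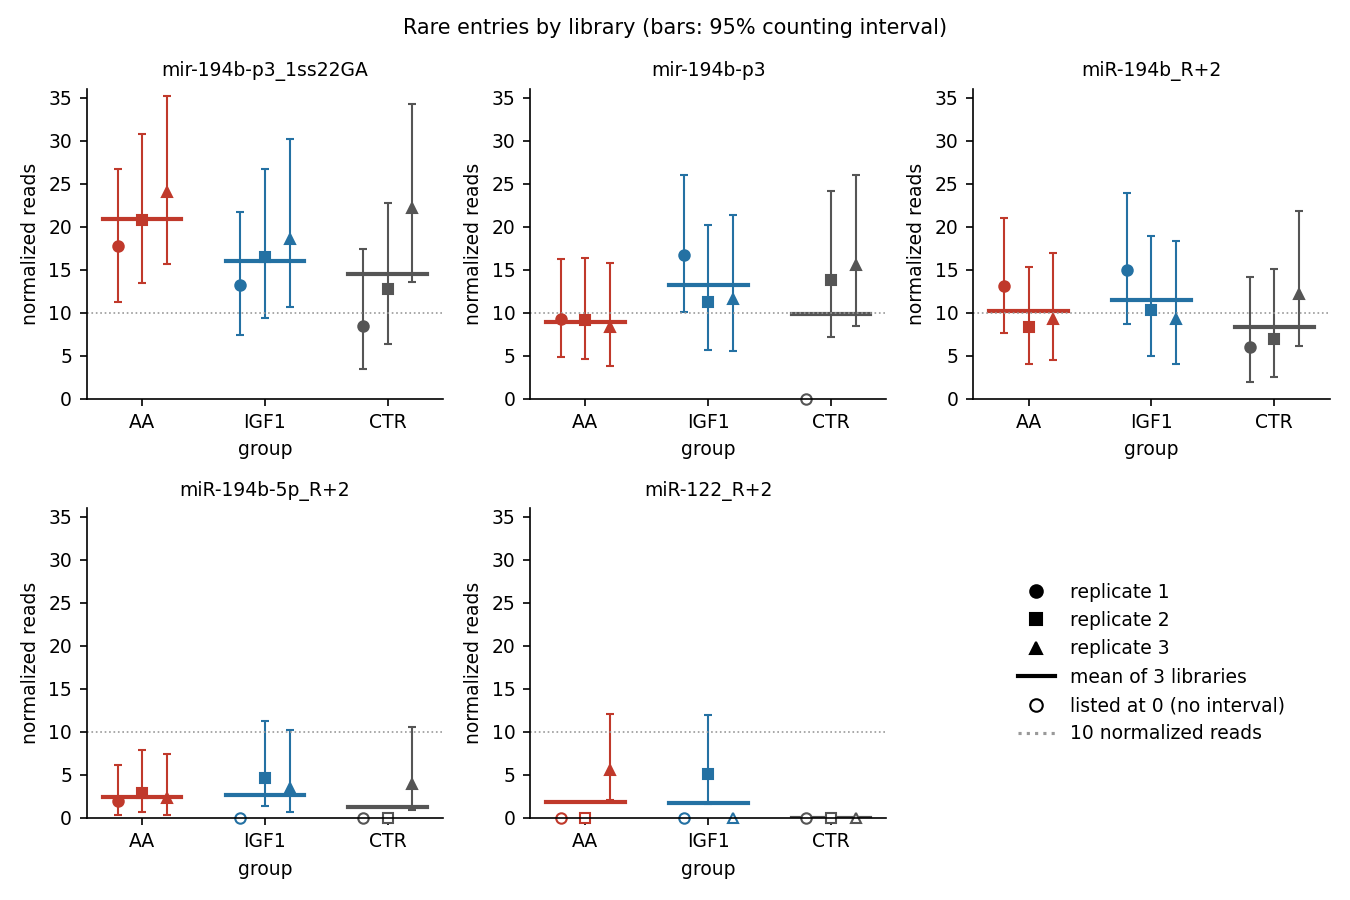
Normalized reads of the 5 rare entries (y axes, from 0) in each library of the AA, IGF1 and CTR groups (x axes), with 95% counting intervals and the mean of 3 libraries as a horizontal line, where open symbols are libraries listed at 0 and the dotted line marks 10 normalized reads. CTR replicate 1 is listed at 0 for mir-194b-p3 and is the lowest library for mir-194b-p3_1ss22GA and miR-194b_R+2.

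The shares of paralog, arm and length within the miR-194 entries varied between libraries, most for the rare forms. miR-194a made up 21.0% to 30.3% of the 5p reads of miR-194 over the 9 libraries, with a mean of 25% ± 4.76 in AA, 24.1% ± 2.83 in IGF1 and 25.8% ± 1.37 in CTR (SD, n = 3 each). The 3p arm made up 8.55% ± 0.55 of miR-194b reads in AA, 7.76% ± 0.74 in IGF1 and 7.46% ± 4.42 in CTR, where replicate 1 stood at 2.42% and the other libraries at 9.27% and 10.7%. The 24-nt forms made up 3.98% ± 0.74 of the 5p reads of miR-194b in AA, 4.11% ± 0.78 in IGF1 and 3.18% ± 1.72 in CTR. The 9 comparisons of these shares gave p of 0.2 or more in exact permutation tests, with an adjusted p of 1.0. With 3 against 3 libraries the smallest possible p is 0.1, so these tests could not reach 0.05 and do not show equal shares. Shares of this kind do not depend on the scaling between libraries.

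Over the set as a whole, no entry passed the threshold in any comparison. Between AA and IGF1, 5 of 594 entries (0.842%) passed and 8.75% had an unadjusted p under 0.05, and no entry of the set was among either. An unadjusted p under 0.05 in limma was found for 1 of 7 entries between AA and CTR, beside 16.5% of all tested entries. Between IGF1 and CTR it was also 1 of 7, beside 10.3%. The entry was miR-122 in both. Of the 7 tested entries 5 had a positive and 2 a negative log2 fold change in AA against CTR. The median was 0.10, beside 0.08 over all tested entries. In IGF1 against CTR 6 were positive and 1 negative, with a median of 0.19, beside 0.05. In AA against IGF1 1 was positive and 6 negative, with a median of -0.07, beside 0.00. Of the 7 entries 5 belong to miR-194, and the entries of an arm share most of their sequence, so they are not separate measurements of the set.

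**Figure D3:**
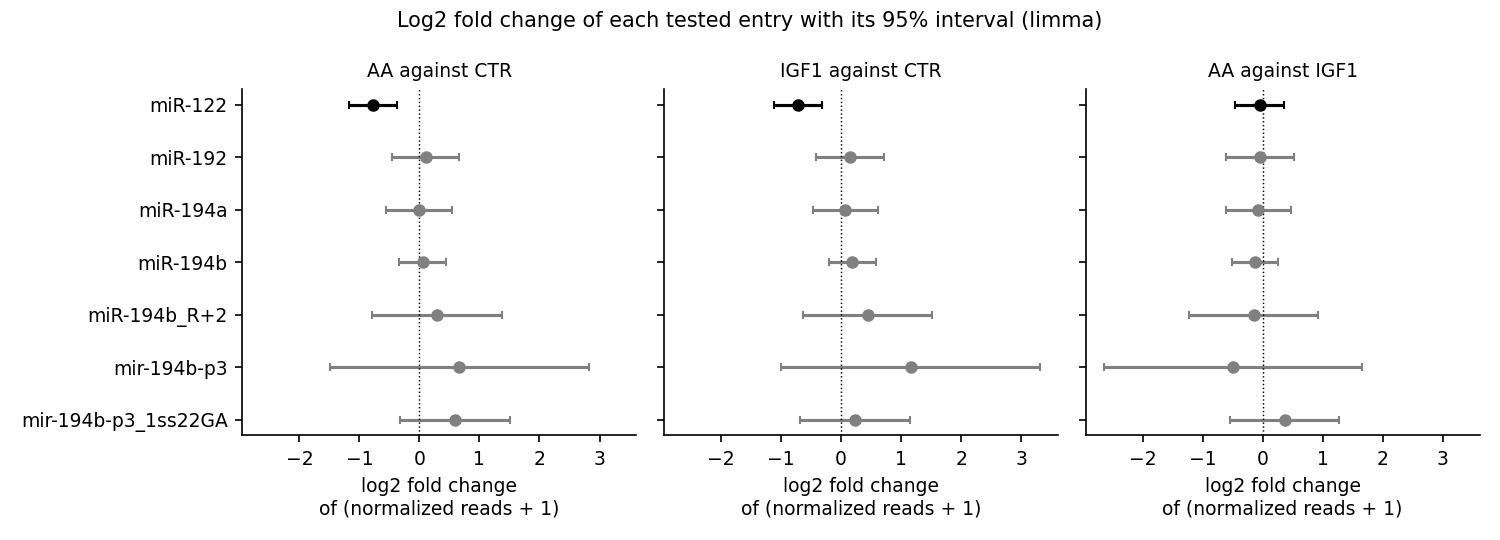
Log2 fold change of (normalized reads + 1) with its 95% interval from limma (x axes) for the 7 tested entries (y axis), with 1 panel per comparison of groups. The intervals of miR-122 lie below 0 in AA against CTR (-1.17 to -0.37) and IGF1 against CTR (-1.12 to -0.31), and every other interval includes 0.

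Ratios between the members of the set do not depend on how libraries were scaled, and they are given here as a description chosen after the values were seen. The ratio of miR-122 to miR-194, each summed over its entries, was 0.678, 0.785 and 0.729 in AA libraries, 0.558, 0.794 and 0.784 in IGF1 libraries, and 1.29, 1.52 and 1.12 in CTR libraries. miR-122 was thus below miR-194 in all 6 AA and IGF1 libraries and above it in all 3 CTR libraries. The ratio of miR-122 to miR-192 was 0.982, 1.90 and 1.91 in AA libraries, 1.09, 1.37 and 2.41 in IGF1 libraries, and 3.11, 3.03 and 2.29 in CTR libraries, where IGF1 replicate 3 lay above CTR replicate 3. The ratio of miR-192 to miR-194 overlapped between the groups, at 0.495 ± 0.17 in AA, 0.472 ± 0.13 in IGF1 and 0.468 ± 0.05 in CTR (SD, n = 3 each).

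miR-192 and miR-194 lie in shared clusters in vertebrate genomes, so their summed levels were compared over the libraries. Pearson's r was 0.03 over the 9 libraries (exact permutation p = 0.944, adjusted p = 0.944 over 3 pairs) and Spearman's rho was 0.00 (exact permutation p = 1.0, adjusted p = 1.0). Without AA replicate 1 and IGF1 replicate 1, the libraries farthest from the median of miR-192, r was -0.39. As deviations from the group means r was -0.09, so no relation was detectable within groups either. For pairs with miR-122 no pooled value is given, since its CTR libraries form a cluster of their own. Over the 6 AA and IGF1 libraries, r between miR-122 and miR-192 was -0.74 (exact permutation p = 0.111) and rho was -0.66 (exact permutation p = 0.175). Between miR-122 and miR-194 r was 0.38 (exact permutation p = 0.429) and rho was 0.20 (exact permutation p = 0.714) over the same 6 libraries. These values depended on scaling. With libraries rescaled to the same total, r was -0.56 between miR-122 and miR-192 (exact permutation p = 0.232). Between miR-122 and miR-194 it was then 0.54 (exact permutation p = 0.268).

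The patterns most like those of the leading entries were looked up among 445 named entries, each distinct sequence once, by Pearson's r over the 9 libraries. For miR-122 these were miR-16b (r = 0.89), miR-132-3p (0.89), miR-203a-3p_L-1R+1 (0.88), miR-203a_L+1 (0.87) and miR-196a (0.85). The 2 forms of miR-203 belong to the epithelial list. All 5 had a lower mean in AA and in IGF1 than in CTR. The choice by r over all 9 libraries favours this direction, since the CTR libraries of miR-122 form a cluster, so it is no separate result. Their log2 fold changes ran from -1.39 to -0.16 in AA against CTR and from -0.82 to -0.13 in IGF1 against CTR. In AA against CTR the values of both miR-203 forms were larger in size than that of miR-122, and those of miR-16b, miR-132-3p and miR-196a were smaller, at -0.32, -0.26 and -0.16. miR-16 is a restraint of the cell cycle in mammals, and miR-132 is best known from neurons.

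**Figure D4:**
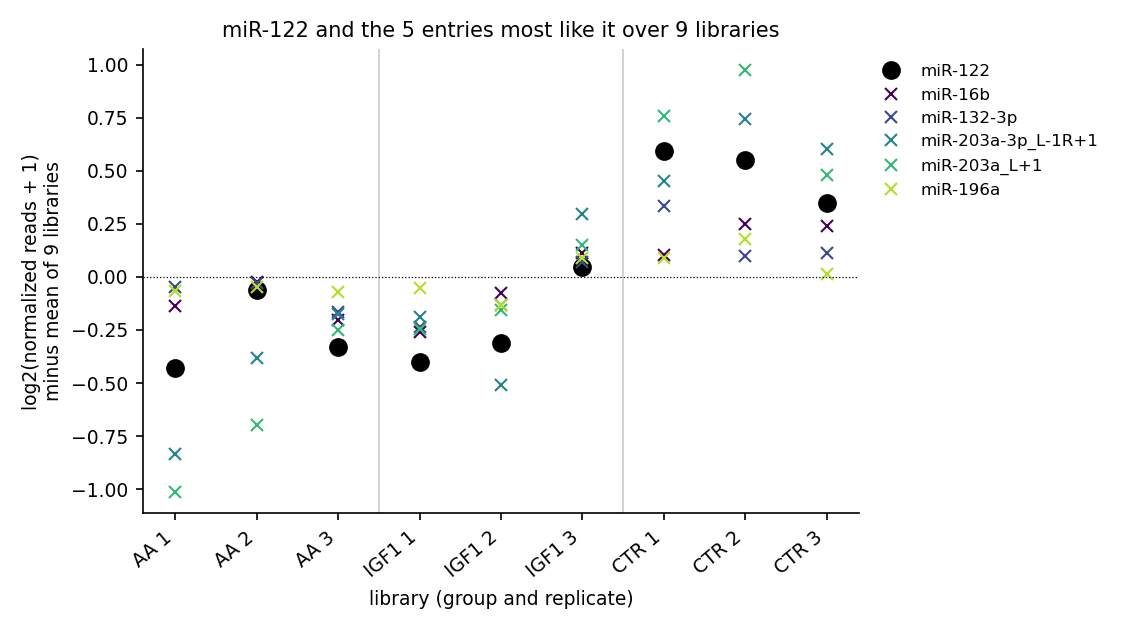
Level of miR-122 (black circles) and of the 5 entries with the highest Pearson's r to it (crosses), as log2(normalized reads + 1) minus the mean of 9 libraries (y axis), in each AA, IGF1 and CTR library (x axis). All 6 entries lie above 0 in the 3 CTR libraries, and IGF1 replicate 3 is the AA or IGF1 library nearest to CTR for miR-122. The 5 entries were chosen by r over these same 9 libraries, which favours a shared position of the CTR libraries.

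For miR-192 the most similar patterns were those of miR-153c (r = 0.86), miR-727a (0.85), miR-142_R+1 (0.77), miR-212a-3p (0.75) and miR-301d-3p (0.73). miR-142 is a miRNA of blood cells. For miR-194b they were miR-214-5p_L-1 (0.91), miR-214-5p (0.91), miR-181a-5-3p_R+2 (0.89), miR-210_R+2 (0.87) and let-7i-2-3p_1ss22CT (0.86). miR-214 is a miRNA of mesenchymal cells, and miR-210 is known to be induced by hypoxia in mammals. These r values describe the 9 libraries, which share depth and scaling within a column, and they were selected as the highest of many. The 3 leading entries had no nearest entry in common.

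No other marker list had all its AA and all its IGF1 libraries below the CTR libraries. The neural list summed to 306 to 417 normalized reads in AA, 299 to 387 in IGF1 and 266 to 370 in CTR, a level like that of each of the 3 miRNA numbers, and the groups overlapped. The blood cell list summed to 1861 to 2963 in AA, 1996 to 3404 in IGF1 and 1634 to 3167 in CTR, also overlapping, with no entry for miR-150. The pancreas list (miR-375, miR-216 and miR-217) and the lists of endothelium and of fibroblasts and smooth muscle all summed to 32721 normalized reads or more in every library. The pancreas list lay above CTR in AA, at 36693 to 48730 in AA, 33427 to 41758 in IGF1 and 32721 to 36603 in CTR. The sum of the fibroblast and smooth muscle list lay below CTR in AA, at 316704 to 342800 in AA, 349951 to 380481 in IGF1 and 345270 to 375037 in CTR. This was not a trait of the whole list, since 7 of its 13 tested entries were higher in AA than in CTR and 6 were lower. The endothelial list overlapped between the groups. Of the pancreas list 10 of 12 entries were tested, and their median log2 fold change was 0.55 between AA and CTR, beside 0.08 over all, and -0.13 between IGF1 and CTR, beside 0.05. All 4 endothelial entries were tested, with medians of 0.07 and 0.05 in these comparisons, and 13 of 18 fibroblast and smooth muscle entries, with medians of 0.04 and 0.13. Markers of blood, endothelial and mesenchymal cells were thus measured in all 3 groups beside the muscle markers, and their part in the levels of miR-192 and miR-194 was not tested.

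The 13 myomiR entries all had a positive log2 fold change in AA against CTR, with a median of 0.96, beside 0.08 over all tested entries. Of the 13, 5 passed the threshold, beside 2.36% of all tested entries. In IGF1 against CTR 10 of 13 were positive, with a median of 0.23, beside 0.05, and none passed the threshold. miR-34 is a classical p53 target in mammals, and a list of p53-responsive miRNAs was formed from it with miR-192, miR-194 and miR-215. The list summed to 2678 to 3166 normalized reads in AA, 3194 to 4180 in IGF1 and 1704 to 2511 in CTR, without overlap between any pair of groups. Most of these reads were miR-34, at 1990 to 2555 in AA, 2546 to 3484 in IGF1 and 1128 to 1850 in CTR. The entries of miR-192 and miR-194, which are 6 of the 10 tested, summed to 611 to 737 in AA, 649 to 819 in IGF1 and 576 to 676 in CTR, and overlapped between all groups. No entry of the list passed the threshold in any comparison.

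**Figure D5:**
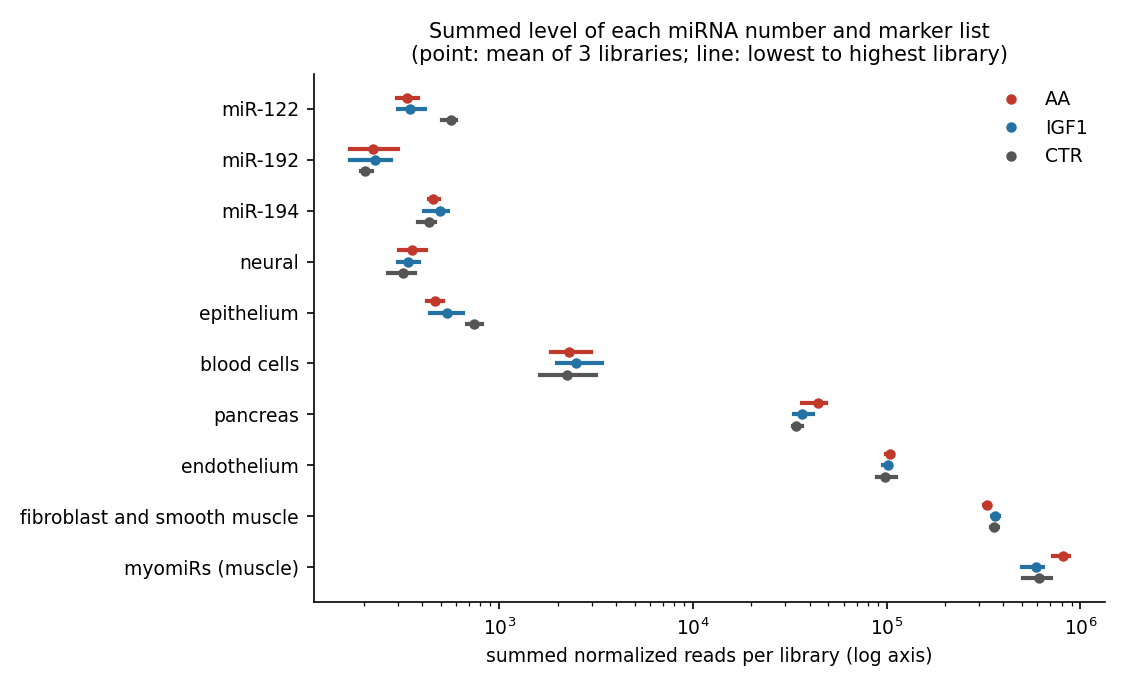
Summed normalized reads per library (x axis, log scale) of the 3 miRNA numbers and of 7 marker lists (y axis) in AA, IGF1 and CTR, where points are means of 3 libraries and lines run from the lowest to the highest library. miR-122 and the epithelial list are the sums whose AA and IGF1 libraries all lie below the CTR libraries, and miR-192, miR-194 and the neural list lie at a similar level without such a gap. Among the 5 tested entries of the epithelial list, only 2 forms of miR-203 had such a gap.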

How the data were processed

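Small RNA libraries (TruSeq, single-end reads of 50 bases on an Illumina HiSeq) were trimmed by the authors with scripts of their own. Unique sequences of 18 to 26 nt were assigned by BLAST to precursors in miRBase 22.0 and 22.1. The deposited table holds normalized reads per entry and library, treated here as a signal. How the reads were normalized, and which genome build was used, is not given in the sources used here. The deposited p-value per entry, from the authors' comparison of the groups, and the deposited means per group were not used.

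Depth was inferred as the total divided by the step between low values. Of the values under 150 normalized reads, 79.3% to 83.1% per library were whole reads within 0.02 reads, so count models were not run.

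Values entered as log2(normalized reads + 1). The added 1 shrinks fold changes between low values, but a library listed at 0 can still dominate them. For mir-194b-p3 in AA against CTR the log2 fold change was 0.66, although the ratio of means was 0.911. Entries that reached 10 normalized reads in 3 or more of the 9 libraries were fitted in 1 limma model (limma 3.58.1, R 4.3.3; empirical Bayes with intensity trend) over all 9 libraries. Tests were two-sided, and the Benjamini-Hochberg adjustment ran over all 594 entries. An adjusted p of 0.05 was the threshold, whatever the fold change. The fit was also run on simulated data with known changes, as a check of the code. Its power for changes as small as those seen here is not reported. Single values per library were compared by exact permutation tests (Python 3.11.15, SciPy 1.17.1). The alternatives were other scalings, pseudocounts of 0.5 and 10, no filter or a minimum of 100, each distinct sequence once, no intensity trend, library weights, only the groups compared, a replicate block, and leaving out each library.

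All entries of miR-122, miR-192 and miR-194 were named, with the 5 entries most like the leading entry of each number. The members, marker lists and tests were chosen with earlier results of these data known, and are not independent evidence. Entries joined a marker list by miRNA number, any arm.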

Additional observations from a re-analysis of the deposited data

How the results depend on the processing

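The log2 fold change of miR-122 stayed between -0.88 and -0.57 in AA against CTR and between -0.85 and -0.63 in IGF1 against CTR under all 21 alternatives. The count of entries of the set past the threshold in AA against CTR was 1, in place of 0, with a minimum of 100 normalized reads, with library weights and with a replicate block, and that entry was miR-122 (adjusted p = 0.0461 with the block, limma). Equal replicate numbers correlated at -0.11 to 0.40, with 6 of 9 pairs over 0.1 and 8 of 9 libraries correlating best with their own number. The labels state no pairing, so it is not known whether equal numbers share a culture, and the main model had no block. Over all entries the block gave 31 calls in AA against CTR, in place of 14, 2 in IGF1 against CTR, in place of 0, and 10 in AA against IGF1, in place of 5. Library weights gave 104, 5 and 20. In AA against IGF1 a minimum of 100 gave 9 calls and no intensity trend gave 1. Leaving out 1 library gave 8 (without AA replicate 2) to 40 (without CTR replicate 1), 0 to 2, and 1 to 13 (without CTR replicate 1). The sign turned for several values, none of them called, and moved farthest for mir-194b-p3. With library weights AA against CTR became -0.038 for miR-192, 0.26 for miR-194a, -0.16 for miR-194b_R+2 and -0.44 for mir-194b-p3, IGF1 against CTR became -0.21 for mir-194b-p3_1ss22GA, and AA against IGF1 became 0.076 for miR-122 and 0.15 for miR-194a. With quantile normalization AA against CTR was -0.14 for miR-194b and IGF1 against CTR was -0.00034 for miR-194a. Leaving out 1 library, AA against CTR ran from -0.051 to 0.15 for miR-194b, -0.13 to 0.28 for miR-192, -0.20 to 0.14 for miR-194a and -0.66 to 1.36 for mir-194b-p3. IGF1 against CTR ran from -0.0043 to 0.35 for miR-192, -0.079 to 0.25 for miR-194a, -0.076 to 0.57 for mir-194b-p3_1ss22GA and -0.16 to 1.86 for mir-194b-p3. AA against IGF1 ran from -0.16 to 0.082 for miR-122, -0.28 to 0.13 for miR-192, -0.27 to 0.073 for miR-194a and -0.33 to 0.039 for miR-194b_R+2. The cause of these changes was not tested. At most 26 inferred reads per library stood behind any single entry of the 3p arm or the 24-nt forms.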
